A study of Glycine max with 8 samples.

Results

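Open chromatin of soybean flower was set against that of soybean root, as the positions at which micrococcal nuclease (MNase) released short DNA under light digestion. Members were chosen in the site lists of 2 flower and 2 root libraries by keeping sites of at least 100 bp, since the flower lists hold none shorter, and by taking as a tissue's reproducible regions the stretches of at least 20 bp listed in both of its libraries. This gave 37701 flower regions and 1482 root regions, 39183 of the 148218 reproducible regions of the 4 tissues in the series. Regions of the tissues that overlapped by at least 1 bp were merged into 521 shared regions. Flower-only regions, which met no kept site in either root library, numbered 35890, and root-only regions, which met no kept site in either flower library, numbered 640.

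Flowers of the cultivar Williams 82 were taken at reproductive stage R1 from plants in an experimental field, and roots of the same cultivar from greenhouse seedlings at vegetative stage V2, under 12 h of light at 28 °C and 12 h of dark at 25 °C. Tissue, plant age and growth place therefore change together between the groups and cannot be told apart. Both tissues gave 1 g of powder, fixed for 10 min in 1% formaldehyde. Aliquots of nuclei received no MNase or 0.01, 0.03 or 0.1 unit of it for 10 min, and fragments under 100 bp were recovered. Whether the libraries of a tissue stem from separate plants is not stated in the labels. With 2 libraries against 2, a two-sided exact permutation test cannot go below p = 0.333, so no test is reported and values are read against the spread between libraries.

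MNase cuts DNA that is not held in nucleosomes. Under light digestion the small fragments come mostly from exposed stretches, which in plants are often promoters, enhancers and other DNA bound by regulatory proteins. Soybean chromosomes mostly have gene-rich arms and a long, repeat-rich middle around the centromere. Flowers build reproductive organs and roots take up water and host nitrogen-fixing nodules. In a bulk library, fewer cells with an open site and less cutting in each cell cannot be told apart.

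The lists differed in length before any overlap was made. Flower 1 and flower 2 held 50078 and 62094 kept sites, against 3192 and 3355 in root 1 and root 2, or 56086 ± 8497 in flower and 3273.5 ± 115 in root (mean ± SD, n = 2 each). Kept sites covered 9.59 and 12.4 Mb in flower and 0.534 and 0.540 Mb in root, of a span of 949 Mb. The minimum width kept every flower site but only 21.0% and 17.7% of the sites of root 1 and root 2. Root sites on either side of that limit met flower about equally often: 38.2% and 38.3% of those of 100 to 109 bp in root 1 and root 2, and 38.5% and 38.6% of those of 90 to 99 bp. They met the other root library unequally, in 42.0% and 39.9% of sites just above the limit, against 35.8% and 26.7% just below it. Lists were called separately at an unknown depth and threshold, so a position missing from a root list need not be closed in root.

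Most flower regions had no counterpart in root. Of the 37701 flower regions, 1.45% met a root region (95% Wilson interval 1.33 to 1.57, counting error only), 3.36% met a root site without meeting a root region, and 95.2% were flower-only. Of the 1482 root regions, 35.8% met a flower region (33.4 to 38.2), 21.1% met a flower site without meeting a flower region, and 43.2% were root-only (40.7 to 45.7). The lists differ in length, and so do these shares. When each flower list was reduced to its highest-scoring sites, as many as the root list of the same number, 161 shared, 1153 flower-only and 1191 root-only regions were left, and 11.3% of root regions met a flower region. With the sites of a single root library in place of root regions, shared regions numbered 1199 (without root 1) and 1097 (without root 2) and root-only regions 1626 and 1604, and without flower 1 there were 60013 flower-only regions.

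The same asymmetry held for each pair of libraries. Root 1 sites were met by flower 1 in 44.7% of cases and by flower 2 in 39.8%, and root 2 sites in 45.3% and 42.6%. Flower 1, the shorter flower list, thus met more sites of both root libraries than flower 2 did. Of the 312 root regions that met a flower site but no flower region, 220 met flower 1 alone, 89 met flower 2 alone and 3 met both. Sites of the root libraries met each other in 45.4% of root 1 and 43.5% of root 2, which is close to how often they met flower 1.

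Along the chromosomes, flower sites were denser towards the ends and root sites of at least 100 bp denser towards the middle. In the outer parts, the 20% of the span at each end, flower 1 and flower 2 held 90.0 and 112 kept sites per Mb, against 2.28 and 3.03 in root 1 and root 2. In the inner parts the densities were 27.9 and 34.1 per Mb in flower, against 4.09 and 3.87 in root. The log2 ratio of outer to inner density was 1.70 ± 0.024 in flower and -0.60 ± 0.35 in root (mean ± SD, n = 2 each), and the libraries of the tissues did not overlap. The direction in root depended on the minimum width. Root sites under 100 bp were denser in the outer parts, by a ratio of 1.13 in root 1 and 1.36 in root 2, and root sites of all widths had ratios of 0.984 and 1.24, against 3.22 and 3.30 in flower 1 and flower 2. Flower density fell with every step inwards, with 39.7% and 39.6% of the sites of flower 1 and flower 2 within the tenth of the span nearest an end and 6.51% and 6.11% in the bin around the middle. Root 1 and root 2 had their highest share, 31.8% and 27.1%, at 30 to 40% of the span from the nearer end.

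**Figure D1:**
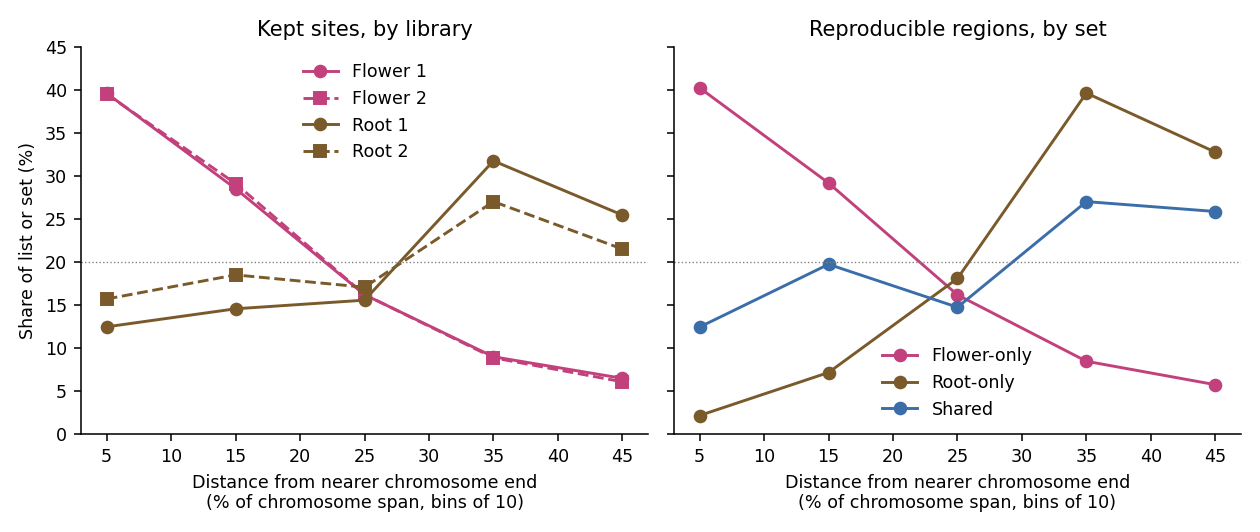
Share of kept sites of each library (left) and of the regions of each set (right) in 5 bins of distance from the nearer chromosome end, as a percent of the chromosome span. The dotted line marks 20%, the value for an even spread. Both flower libraries and the flower-only regions decline inwards from about 40%, whereas both root libraries and the root-only regions have their highest point at 30 to 40% of the span from an end, and shared regions stay between 12.5% and 27.1%.

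The one-tissue sets lay on either side of the shared regions. Flower-only regions numbered 24950 in outer and 10940 in inner parts, a density ratio of 3.42, whereas root-only regions numbered 60 and 580, a ratio of 0.155. The log2 ratios were 1.77 for flower-only and -2.69 for root-only regions, against 1.72 for all flower and -1.57 for all root regions. Reproducible root regions as a whole thus already lay below the root lists, at -0.60. They stayed on these sides of 0 under every setting tried, between 1.43 and 1.81 for flower-only and between -3.48 and -1.03 for root-only regions. The weakest root-only value, -1.03, was that without root 1, against -2.23 without root 2. Shared regions lay between, with 168 outer and 353 inner regions and a log2 ratio of -0.49.

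The place of the shared regions depended on the minimum width and on the requirement that both root libraries list a site. With no minimum width their log2 ratio was 0.60. Without root 1 the log2 ratio of shared regions was 0.53 and without root 2 it was 0.52, and in all 3 cases they were denser towards the ends. In flower, outer and inner sites replicated alike: 74.8% and 59.3% of the outer sites of flower 1 and flower 2 were met by the other flower library, against 73.1% and 59.3% of the inner sites. In root, outer sites replicated less: 31.1% of outer root 1 sites met root 2 and 23.5% of outer root 2 sites met root 1, against 50.8% and 53.9% in the inner parts. Outer root sites nevertheless met flower more often than inner ones did. Of the outer sites of root 1 and root 2, 76.9% and 65.1% met a site of either flower library, against 39.7% and 44.4% of the inner sites. An outer root site was thus found more often in the long flower lists than in the other root list.

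Reproducible root regions showed the same gradient. In the tenth of the span nearest an end, 66 of 89 root regions met a flower region (74.2%, 64.2 to 82.1) and 14 were root-only. In the next bin 109 of 182 met a flower region (59.9%, 52.6 to 66.7). From 20% of the span inwards the share was 31.8%, 27.4% and 30.2% in successive bins, with 47.9%, 49.0% and 46.6% root-only. For flower regions the gradient ran the other way, since 0.668% of outer regions and 3.16% of inner regions met a root region.

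**Figure D2:**
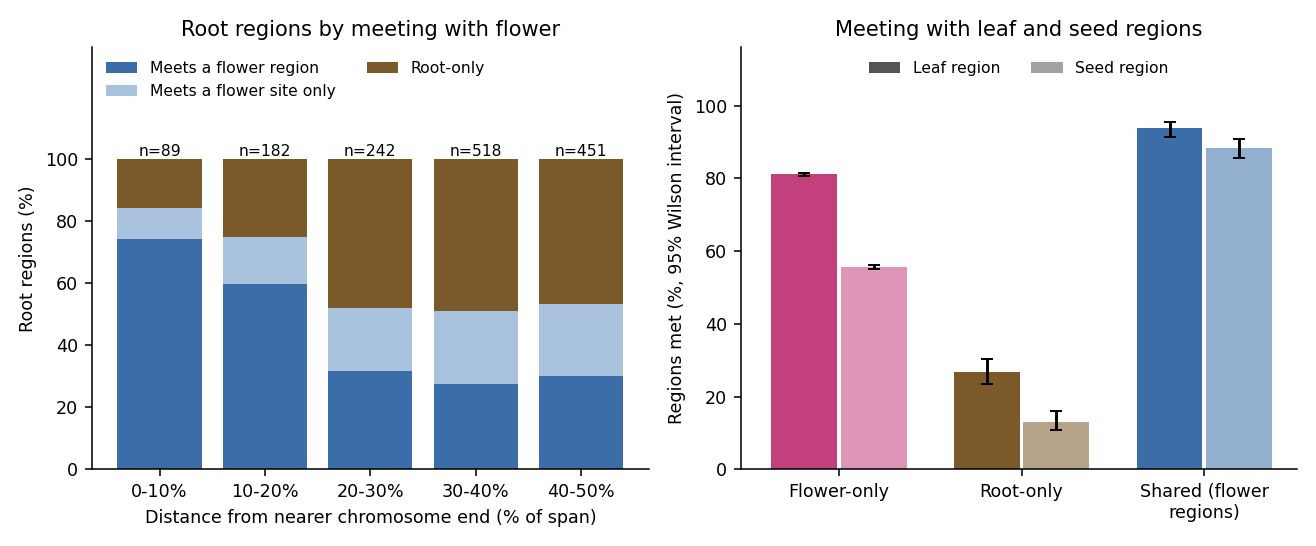
Left, root regions by distance from the nearer chromosome end (percent of span), split into those meeting a flower region, those meeting a flower site but no flower region, and root-only regions, with the number of root regions above each bar. Right, percent of flower-only, root-only and shared regions (counted as flower regions) met by a reproducible leaf or seed region, with 95% Wilson intervals. Root-only regions rise from 15.7% near the ends to over 46% inwards, and have the lowest bars for leaf and seed.

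Single chromosomes differed in how they were divided between the tissues. By share of the list, both flower libraries lay above both root libraries on 12 of 20 chromosomes (60%). Both root libraries lay above both flower libraries on the other 8 (40%). Shares within a list add up to the whole, so higher shares on some chromosomes come with lower ones on others. A split without overlap in either direction has a probability of 0.333 under shuffled labels. Some splits were narrow: chromosome 19 took 4.92% and 5.37% of root 1 and root 2, against 4.84% and 4.89% of flower 1 and flower 2. The outer-to-inner ratio was higher in both flower libraries on 19 chromosomes (95%) and higher in both root libraries on 1 (5%), which was chromosome 13. There the log2 ratios were -0.21 and -0.21 in flower 1 and flower 2, against 1.77 and 1.52 in root 1 and root 2. Of its root-only regions 21 were outer and 1 inner, and of its flower-only regions 978 were outer and 1708 inner. Outer and inner parts go by position along the span alone, and need not match arms and repeat-rich middle on a given chromosome.

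Chromosome 6 held most root regions. It took 6.17% and 6.19% of the kept sites of flower 1 and flower 2, against 9.90% and 8.11% of those of root 1 and root 2, and held 60 shared, 2225 flower-only and 72 root-only regions. Chromosome 11 stood at the other end, with 5.17% and 5.12% of the flower sites against 2.22% and 2.30% of the root sites, and with 6 shared, 1930 flower-only and 9 root-only regions. Chromosome 11 is also the one whose lines are all repeated in the root lists, 479 and 649 of them, which were dropped here. Chromosome 2 had 64 root-only regions, all in its inner part, where 589 of its 2036 flower-only regions lay. The share of root regions that met a flower region was lowest on chromosome 5, at 19.0% of 79, and highest on chromosome 12, at 55.1% of 49, followed by chromosome 13, at 54.3% of 70.

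**Figure D3:**
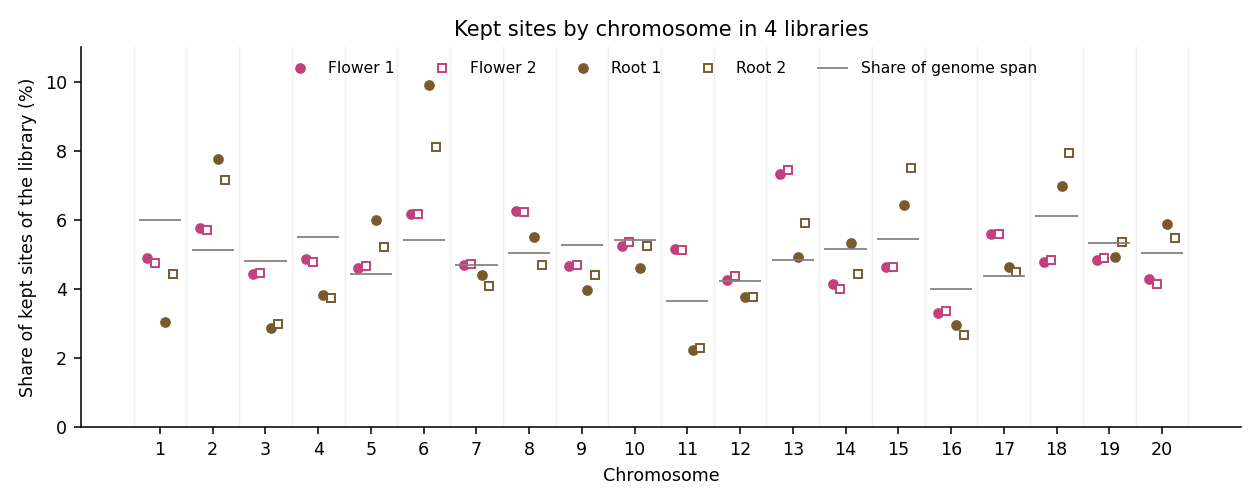
Share of each library's kept sites on each of the 20 chromosomes, with flower libraries left of root libraries and grey lines for the chromosome's share of the span. Flower libraries lie highest on chromosome 13 (7.33% and 7.44%), and root libraries highest on chromosome 6 (9.90% and 8.11%) and lowest on chromosome 11 (2.22% and 2.30%).

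At a scale of 1 Mb, root regions crowded into few windows. Root-only regions occurred in 145 of 956 windows, and 15 windows held 50% of them. Flower-only regions occurred in 935 windows, with 188 windows needed for the same part, and shared regions in 250, with 36 needed. These counts depend on set size, which was 35890 for flower-only against 640 for root-only regions. Shared regions, with 521, were fewer than root-only regions and yet occurred in more windows. By share of the list, both flower libraries exceeded both root libraries in 524 of 955 windows with a kept site (54.9%), of which 306 were outer. Both root libraries exceeded both flower libraries in 221 (23.1%), of which 30 were outer and 191 inner. Root 1 and root 2 had 3192 and 3355 kept sites over these 955 windows, so a window's root share often rests on few sites.

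In 44 windows (4.61%), 41 of them inner, both root lists held more sites than both flower lists in spite of their length. These windows, chosen by those counts, held 1.12% and 0.730% of the sites of flower 1 and flower 2, against 46.3% and 34.7% of the sites of root 1 and root 2. They held 74.5% of the root-only, 34.0% of the shared and 0.281% of the flower-only regions.

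The window with most root-only regions started at 20000001 on chromosome 2. It had 42 and 18 sites in flower 1 and flower 2, against 111 and 92 in root 1 and root 2, and held 43 root-only, 10 shared and 2 flower-only regions. The window from 16000001 on chromosome 5 had 17 and 8 flower sites against 106 and 69 root sites, with 36 root-only, 4 shared and no flower-only regions. The window from 14000001 on chromosome 20 had 26 and 15 flower sites against 99 and 64 root sites, with 34 root-only regions and 11 shared ones. In each of these, flower 1 held more sites than flower 2, although flower 1 is the shorter list, and root 1 more than root 2.

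On chromosome 6, adjacent windows from 31000001 and 32000001 held 27 and 33 root-only regions. The second of these was also the window with most shared regions, 23, beside a lone flower-only region. The window from 38000001 on chromosome 13, with 15 shared regions, was unlike the others: it lay in the outer part, had 189 and 234 flower sites against 35 and 59 root sites, and held 121 flower-only and 3 root-only regions. The windows from 19000001 on chromosome 15, 39000001 on chromosome 18 and 19000001 on chromosome 2 held 16, 13 and 12 shared regions. Without the 9 windows named here, the log2 ratio of shared regions was -0.16 and that of root-only regions -2.11.

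Among regions of kept sites, root-only regions were the narrowest. Root was also narrower as a whole, with a median of 132 bp over all root regions against 153 bp over all flower regions. The median width was 151 bp for flower-only regions and 116.5 bp for root-only regions, and within shared regions it was 168 bp for the flower and 160 bp for the root region. The flower libraries disagreed on the order, since sites in flower-only regions had medians of 184 bp in flower 1 and 203 bp in flower 2, against 215 and 197 bp for sites in shared regions. In both root libraries sites of one tissue were the narrower: sites in root-only regions had a median of 146 bp in root 1 and 135 bp in root 2, against 185 and 182 bp for sites in shared regions. Regions of at least 300 bp made up 6.87% of flower-only and 0.938% of root-only regions, which is 2464 and 6 regions. With no minimum width the median was 73 bp for root-only regions and 75 bp for root regions in shared ones, so the contrast within root rests on the kept sites.

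Where the tissues shared a region of kept sites, the stretches mostly coincided. Over the 554 overlapping pairs of a flower and a root region, the flower region was the wider in 252 and the root region in 299. The median overlap was 127 bp, which covered a median of 95.7% of the flower and 86.2% of the root region, and the middles lay a median of 21.5 bp apart. In 177 pairs the root region lay wholly within the flower region, and in 242 the flower region lay within the root region. With no minimum width the medians in shared regions were 202 bp for flower and 75 bp for root, so the likeness in width holds for sites of at least 100 bp.

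**Figure D4:**
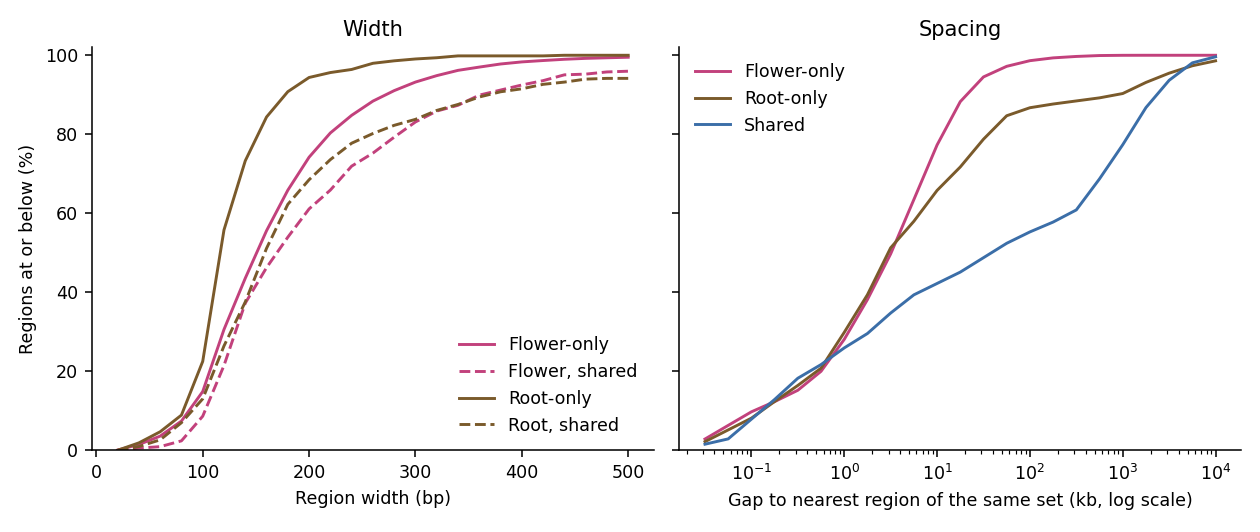
Cumulative percent of regions by width in bp (left) and by gap to the nearest region of the same set in kb on a log scale (right). Root-only regions are narrowest, with a median of 116.5 bp, and the curve of shared regions flattens between the short gaps of runs and much longer gaps.

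The widest shared region, 3476 bp, ran from 19588801 to 19592276 on chromosome 15. The libraries each held 1 site there, of 3464 and 3466 bp in flower and of 3479 and 3481 bp in root. The next, 290 bp away and running from 19586850 to 19588510, had sites of 1639 and 1636 bp in flower and of 1651 and 1662 bp in root. Then came regions of 1225 bp, from 5356281 to 5357505 on chromosome 19, and of 1127 bp, from 23596296 to 23597422 on chromosome 17. On chromosome 17 the sites measured 1127 and 1128 bp in flower, against 1105 and 1114 bp in root. At each of these 4 regions the leaf and seed libraries also held 1 site, of 3471 to 3496 bp at the widest and 1099 to 1122 bp on chromosome 17. These 4 regions thus had nearly equal widths in all 8 libraries of the series, not in flower and root alone.

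The fifth, from 19922002 to 19923093 on chromosome 2, did not. Flower 1 held 3 sites there, the widest of 262 bp, and flower 2 held 2, the widest of 566 bp, whereas both root libraries held a single long site, of 1118 and 1095 bp. Its flower sites stood at percentiles 75.2 and 64.2 of the deposited score, and those of the 4 wider regions above percentile 99.9. The score is the authors' own value per site, deposited without a definition and used here only to rank sites within a list.

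Of the 5 widest flower-only regions, 3 lay on chromosome 13. They ran from 34675259 to 34676120 (862 bp), from 32178907 to 32179764 (858 bp) and from 23888725 to 23889522 (798 bp). The remaining ones ran from 11181921 to 11182716 on chromosome 6 (796 bp) and from 1239285 to 1240078 on chromosome 10 (794 bp). All 5 also held sites in both leaf libraries, and all but the region on chromosome 6 in both seed libraries. The 3 flower-only regions with the highest scores, all above percentile 99.9 in both flower lists, were far narrower. They measured 170 bp (25489563 to 25489732, chromosome 1), 198 bp (39579438 to 39579635, chromosome 1) and 138 bp (17087890 to 17088027, chromosome 10). Those on chromosome 1 held sites in all 4 leaf and seed libraries, and that on chromosome 10 in leaf 2 alone.

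The widest root-only region, 421 bp, ran from 14319772 to 14320192 on chromosome 20, within sites of 445 bp in root 1 and 859 bp in root 2. The next, 337 bp, began 2103 bp further on, from 14322296 to 14322632. Those of 335 bp (22414408 to 22414742, chromosome 12), 324 bp (31621531 to 31621854, chromosome 6) and 319 bp (45403304 to 45403622, chromosome 15) followed. Leaf 2 held sites at all 5, leaf 1 and seed 1 at all but the region on chromosome 6, and seed 2 at none. The root-only region farthest from any kept flower site, 592587 bp away, ran from 37171613 to 37171713 on chromosome 18 and held no leaf or seed site. Then came regions 436082 bp away (17653088 to 17653218, chromosome 5) and 363386 bp away (14239151 to 14239237, chromosome 10).

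Regions of each set lay closer together than even spacing would place them. The median gap from a region to the nearest of its own set was 3200 bp for flower-only, 2875 bp for root-only and 41123 bp for shared regions. Even spacing over the span would give gaps 8.26 times this value for flower-only, 516 times for root-only and 44.3 times for shared regions. Regions scattered at random also lie closer than that, and so do regions in denser parts of chromosomes. The multiples thus do not measure grouping alone, and random placement was not tested. The gaps moved with the lists and libraries used. With flower lists as long as the root lists they were 146622, 1242 and 1226636.5 bp for flower-only, root-only and shared regions, and with no minimum width that of shared regions was 148374 bp. Without flower 1, flower 2, root 1 or root 2 that of shared regions was 11508.5, 8181, 144987 or 176079 bp, and that of root-only regions 1847, 2627, 5356 or 1788 bp. Without flower 1 the gap of flower-only regions was 1650 bp. Another region of the set lay within 10 kb of 77.3% of flower-only, 65.8% of root-only and 42.2% of shared regions, although flower-only regions outnumber root-only regions by far. When regions at most 5 kb apart were joined into runs, 14.7% of root-only and 12.9% of shared regions stood in runs of at least 5. Alone stood 43.4% and 60.7%. Flower-only regions were near these values, with 11.5% in such runs and 39.5% alone. Root regions as a whole were more grouped than root-only regions, with 33.9% in such runs, 35.0% alone and a median gap of 1439.5 bp. The longest root-only run held 12 regions over 23.4 kb on chromosome 2, from 20216429 to 20239804. The longest shared run held 15 regions over 17.5 kb on chromosome 15, from 19585864 to 19603371, and includes both of the widest shared regions.

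Flower-only regions lay far from root sites, and root-only regions close to flower sites. From flower-only regions the nearest kept root site lay a median of 87579 bp away, and within 1 kb for 609 of 35890 (1.70%). From root-only regions the nearest kept flower site lay a median of 2597.5 bp away, and within 1 kb for 220 of 640 (34.4%). The part of list length in these distances was not tested.

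Root sites shorter than 100 bp, which the choice of members did not use, were found at some of the flower-only regions. Root 1 held such a site at 6.34% of them and root 2 at 7.41%, with either library at 12.3% (12.0 to 12.7) and both at 1.42%. Of the flower regions that met a longer root site without meeting a root region, 36.2% met a short root site of either library. If short sites are admitted, 31465 flower regions remain without a root site.

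Flower sites that met root were high in the flower lists, whether or not the root region was reproducible. Sites in shared regions had a median score percentile of 89.8 in flower 1 and 88.7 in flower 2, against 57.4 and 64.5 for sites in flower-only regions. Sites in flower regions that met a root site without meeting a root region had medians of 87.0 and 85.5. These last sites were also wider, at medians of 258 and 275 bp, against 184 and 203 bp in flower-only regions. The part of site width in meeting root was not tested. Among inner sites alone the medians were 85.6 and 86.8 in shared regions, against 57.4 and 64.1 in flower-only regions. The percent of sites that met a kept root site was 16.9% and 12.5% in the highest score decile of flower 1 and flower 2, against 1.48% and 0.999% in the lowest. From the ninth decile to the highest it more than doubled in both lists, from 6.31% and 5.27%.

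**Figure D5:**
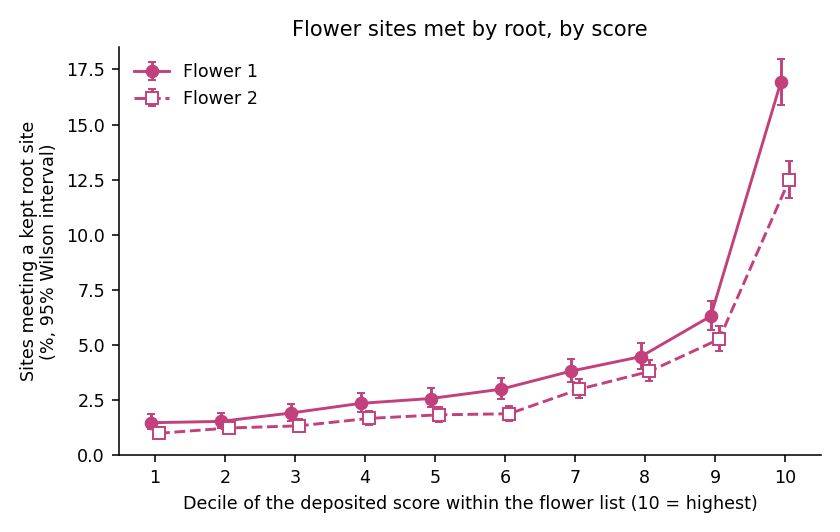
Percent of flower sites that meet a kept site of either root library, by decile of the deposited score within each flower list (10 is highest), with 95% Wilson intervals. Both lists climb slowly up to the ninth decile, at 6.31% and 5.27%, and reach 16.9% and 12.5% in the highest.

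The leaf and seed libraries, whose sites were not used in choosing the regions, met root-only regions least often. Of the flower-only regions, 81.2% met a reproducible leaf region (80.8 to 81.6) and 55.5% a seed region. Of the root-only regions, 26.9% met a leaf region (23.6 to 30.4) and 13.1% a seed region (10.7 to 16.0). Over all flower regions, of which 95.2% were flower-only, the shares were 81.8% for leaf and 57.1% for seed. The flower-only shares are thus close to those of flower as a whole. Over all root regions the shares were 57.5% for leaf and 45.3% for seed. They were 94.2% and 87.9% for root regions meeting a flower region. For root regions meeting a flower site but no flower region they were 58.0% and 39.1%. Leaving out root regions that met flower thus also left out regions that leaf and seed met more often, so the root-only shares are not independent of the choice. Of the flower regions that were shared with root, 93.8% met leaf and 88.4% met seed, and none of the 545 lacked a site in every leaf and seed library, which allows a share of up to 0.550%. The order was the same in outer and inner parts, with 81.4% and 80.7% of flower-only regions and 31.7% and 26.4% of root-only regions met by leaf.

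Libraries of a tissue did not see the root-only regions equally. Leaf 1 met 32.5% of them and leaf 2 met 60.5%, while seed 1 met 33.9% and seed 2 met 20.2%. For flower-only regions leaf 1 and leaf 2 were close, at 86.6% and 85.2%, whereas seed 1 met 80.8% and seed 2 met 59.7%. The sites met were ranked differently too. Leaf sites at root-only regions had median score percentiles of 34.0 in leaf 1 and 46.2 in leaf 2, against 92.9 and 96.6 for leaf sites at shared root regions. In seed the medians were 49.6 and 55.1 at root-only regions, against 97.4 and 95.3 at shared root regions.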

How the data were processed

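Each of the 8 lists was deposited by the authors per library, without a header, with a chromosome, start and end per site. Leaf, flower and seed sites also carry a score as deposited by the authors, and how they computed the score is not stated in the labels or the lists. Per the submitters' processing notes, trimming used Trimmomatic 0.36 and alignment BWA 0.7.15-r1140. For the caller, its threshold and the genome build, nothing is given in the sources used here, and depth, with the precision it gives, is unknown.

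Repeated root lines were dropped, and starts were read as counting from 0 and are printed counting from 1. Overlaps, gaps and ratios were computed in Python 3.11.15 with NumPy 2.4.6 and SciPy 1.17.1 and tested on simulated lists. A chromosome's span is its last site end over the 8 libraries. Windows of 1 Mb and position bins of 10% go by a region's middle. Intervals are 95% Wilson intervals, and the limit beside a count of 0 is 3 counts of the total.

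The rule for named regions took the 5 widest of each set, the 3 root-only regions farthest from a flower site, the 3 flower-only regions with the highest mean score percentile, and the 5 windows with most root-only and most shared regions. Members and lists were chosen with earlier results of these data known. No genome of the lists' build was at hand, so regions carry no gene names or sequence.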

Additional observations from a re-analysis of the deposited data

How the results depend on the processing

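Results are given as values, and a value is said to have moved when it left the spread between libraries, or 1.5 times for a count. The percent of root regions meeting flower has no such spread. Its moved values lay outside, and the rest inside, its 95% Wilson interval of 33.4 to 38.2, which is counting error. No paired analysis was possible because the results come from overlaps of lists and from no test. With no minimum width there were 1183 shared and 2036 root-only regions, 32.3% of root regions met flower, the log2 outer-to-inner ratios were 0.60 (shared, reversed), 1.81 (flower-only) and -1.85 (root-only), median gaps were 148374, 3659 and 1654 bp in that order, and median widths were 202 bp (flower, shared), 75 bp (root, shared) and 73 bp (root-only). Dropping the minimum width itself brings in the short root sites. Over sites of all widths, a choice made after seeing the data, the mean log2 ratio of the lists was 1.70 in flower and 0.14 in root (reversed). With a minimum of 150 bp there were 213 shared, 21835 flower-only and 302 root-only regions, with ratios of -0.60, 1.77 and -2.82, gaps of 78489, 5992 and 6568 bp, and widths of 225 bp (flower, shared), 192 bp (flower-only), 214 bp (root, shared) and 170 bp (root-only).

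With flower lists as long as the root lists there were 161, 1153 and 1191 regions, 11.3% of root regions met flower, the ratios were -0.24, 1.63 and -2.15, the gaps 1226636.5, 146622 and 1242 bp, and the widths 237, 281, 164 and 128 bp. Flower-only regions were then wider than flower regions in shared ones. Outer parts of 10% gave -0.81, 1.43 and -3.48. Replicate intersections of at least 50 bp gave ratios of -0.51 (shared) and -2.64 (root-only) and gaps of 3345.5 bp (flower-only) and 3303.5 bp (root-only). A meeting overlap of 20 bp gave a shared ratio of -0.52. Exclusion by reproducible regions alone gave 1.76 and -2.57 (flower-only, root-only) and gaps of 3040 and 1659.5 bp.

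Without the 9 named windows, a choice made after seeing the data, 40.1% of root regions met flower, the ratios were -0.16, 1.77 and -2.11, the gaps of shared and root-only regions 294733 and 5008 bp, and the widths in shared regions 184 bp (flower) and 155 bp (root).

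Leaving out each library in turn gave 610 to 1199 shared, 36469 to 60013 flower-only and 729 to 1626 root-only regions, and 34.6% to 50.8% of root regions meeting flower. The ratios ran from -0.98 to 0.53 (shared; 0.53 without root 1 and 0.52 without root 2, both reversed), from 1.75 to 1.77 (flower-only) and from -2.72 to -1.03 (root-only). Gaps ran from 8181 to 176079 bp (shared), 1650 to 3140 bp (flower-only) and 1788 to 5356 bp (root-only). Widths ran from 169 to 200.5 bp (flower, shared), 152 to 171 bp (flower-only), 149 to 157 bp (root, shared) and 118 to 129 bp (root-only). The causes were not tested beyond these settings. Over all settings 95 values moved, 4 reversed and 60 stayed. The spread of ratios is that of sites in the same regions and so is small.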
